A study of Mus musculus with 20 samples.

Results

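Thy1hi YFP+ keratinocytes, labelled through a *Thy1*-driven inducible Cre and sorted for yellow fluorescent protein (YFP), were compared with Thy1hi keratinocytes sorted without that label. The study describes both populations as also positive for integrin-α6 and Sca1. The comparison uses 3 Thy1hi YFP+ and 4 Thy1hi libraries of the 20 bulk RNA-seq libraries from mouse dorsal epidermis. Its members are 14233 of 53380 genes, those that reached 10 in 3 or more of these 7 libraries. Values are normalized counts, that is, reads per gene divided by a size factor of the library. The question is how cells that carry the lineage label differ from the population that the same surface markers define.

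The labels give both groups the genotype Thy1.2CreERT2-Rosa26-EYFP and no treatment, with ages of 17 to 19 weeks for the YFP+ samples and 20 to 23 weeks for the Thy1hi samples. The series' design text instead gives 8-week-old mice for the whole series. By the study's methods the Thy1hi cells came from wild-type C57BL/6J mice, whereas the YFP+ cells need tamoxifen-induced *Thy1-CreERT2* (Slick-H) crossed to *R26-EYFP*. In that driver line the *Thy1* promoter drives CreERT2, and its strain name lists an EYFP of its own on a mixed B6 and SJL background. The study reports this EYFP as high in the brain but not detected in the epidermis of uninduced mice. Tamoxifen was injected under the skin or applied in ethanol to shaved and depilated skin, and the interval between induction and sorting of these samples is not stated. The cell type label of the YFP+ samples reads ScaI-, while their titles read ScaI P. The libraries were prepared in 2 batches that the labels do not name, and more than 1 library kit is listed, so batch and kit cannot be told apart from the lineage label. The study's legends differ on whether these groups were single or pooled mice, so the p-values measure only the spread between these libraries, which may be technical.

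The interfollicular epidermis is renewed by basal keratinocytes, which sit on the basement membrane, express keratins 5 and 14 and bind their substrate through integrins and collagen XVII. Cells that leave this layer switch to keratins 1 and 10 and then to cornified envelope proteins. Keratin 6 isoforms, stefins and small proline-rich proteins are known from wounded, depilated and inflamed epidermis. Thy1 (CD90) is a GPI-anchored surface glycoprotein best known from T cells, neurons and fibroblasts. With an inducible Cre, a pulse of tamoxifen marks the cells that express the driver at that time, and their descendants keep the mark whether or not they still express it.

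Between 7910401 (Thy1hi replicate 2) and 12982393 (YFP+ replicate 2) reads fell on genes, of which 20.6% to 37.0% lay on the ribosomal RNA gene *Rn45s*. In a principal component analysis of the 7 libraries, the leading components held 36.9%, 22.0% and 17.8% of the variance, and neither of the leading pair separated the groups. On these components YFP+ replicate 3 (component 2 at -68.5), Thy1hi replicate 2 (component 1 at 66.8) and Thy1hi replicate 4 (-56.4 and 45.8 on components 1 and 2) lay farthest out. *Xist*, the RNA that coats the inactive X chromosome, was 62.8 in YFP+ replicate 1 and 14282 and 16375 in the other two, while the Y-linked *Ddx3y* was 577, 6.97 and 0.99. In Thy1hi replicates 1, 2 and 4 *Xist* was 4195 to 15503 beside *Ddx3y* at 73.8 to 274, and in Thy1hi replicate 3 they were 23941 and 4.06, so the sexes were mixed differently from library to library. *Rn7sk*, a small nuclear RNA without a poly(A) tail, was 55414, 50512 and 28192 in YFP+ and 64477 to 83199 in Thy1hi libraries, without overlap. Whether kit, sex or batch had a part in the differences below was not tested.

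The main basal keratins and the sort markers are given first, and other basal genes further on. *Krt5* was 70508, 44883 and 79559 in YFP+ cells and 49782 to 80657 in Thy1hi cells. *Krt14* was 93750, 68780 and 117463 against 65455 to 90985, and the integrin *Itga6* 9852, 6917 and 12017 against 9021 to 12214. These ranges overlapped for each of the 3 genes. *Ly6a*, which encodes Sca1, was 318, 200 and 401 in YFP+ cells, against 185 to 261. It was therefore as high in cells whose label reads ScaI- as in the Thy1hi cells. *Thy1* itself was 694, 468 and 1546 in YFP+ and 775, 663, 511 and 583 in Thy1hi cells, so that only YFP+ replicate 3 lay outside the Thy1hi range on the high side. Its log2 fold change was 0.34 (95% interval -0.51 to 1.20, limma adjusted p = 0.837). The table has no row for EYFP or Cre, and the transcript of the *Rosa26* locus itself, Gt(ROSA)26Sor, reached at most 3.88 in any of the 7 libraries.

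Of the 14233 genes, 2 differed at an adjusted p under 0.05 (percent called 0.0141), *Tspan3* and *Slc16a6*, and both rose in YFP+ cells. The test was limma on log2(value + 1) with all 20 libraries in the fit. No gene fell at that threshold by this test. At an unadjusted p under 0.05 there were 1392 genes (9.78%), 733 higher (5.15%) and 659 lower (4.63%). Over all genes the median log2 fold change was -0.000902 and 49.9% had a positive sign. Libraries of the groups did not overlap for 1672 genes (11.7%). In bulk libraries, more cells with a transcript and more transcript per cell cannot be told apart. Rescaling the columns to the same total ended both calls, with a limma adjusted p of 0.0906 for each gene and 1095 genes at an unadjusted p under 0.05. The log2 fold changes were then 1.69 for *Tspan3* and 1.68 for *Slc16a6*, against 1.65 and 1.64 without rescaling. The count also depends on the libraries in the fit and on the tool. Limma on the 7 libraries alone called 37 genes (0.26%), 21 higher (0.148%) and 16 lower (0.112%), and these held 1 of the pair above. DESeq2 on recovered reads of all 20 libraries called 108 (0.759%), 64 higher (0.45%) and 44 lower (0.309%), and these held both.

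*Tspan3* encodes a tetraspanin, one of a family of small membrane proteins that organise partner receptors and integrins in the plasma membrane. It lies on chromosome 9 from 56131725 to 56165477 (mm10, ENSMUSG00000032324.11). It was 548, 385 and 621 in the YFP+ libraries and 181, 145, 202 and 129 in the Thy1hi libraries. Every YFP+ library exceeded the highest Thy1hi library and every library of the other populations, where the means were 75.4 ± 5.31 (SD, n = 4) in Thy1- cells, 78.8 ± 29.0 (n = 4) in hair follicle stem cells (HFSCs) and 46.8 ± 8.37 (n = 5) in dendritic epidermal T cells (DETCs). The ratio of means was 3.16 and the log2 fold change 1.65 ± 0.25 (SE, limma adjusted p = 0.0193). An exact two-sided permutation test gave p = 0.0571, the smallest that 3 against 4 libraries allow.

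*Slc16a6* encodes monocarboxylate transporter 7, of a solute carrier family that moves small organic acids across membranes. On chromosome 11 it spans 109450855 to 109473598 (ENSMUSG00000041920.14). Its values were 104, 83.6 and 94.1 in YFP+ and 24.3, 22.4, 44.7 and 30.1 in Thy1hi libraries. The lowest YFP+ library was thus well above the highest Thy1hi library, with a ratio of means of 3.09 and a log2 fold change of 1.64 ± 0.25 (SE, limma adjusted p = 0.0193, exact p = 0.0571). Unlike *Tspan3*, it was not highest in YFP+ cells, since DETCs had 118 ± 23.2 (n = 5), Thy1- cells 56.6 ± 5.18 (n = 4) and HFSCs 43.2 ± 10.4 (n = 4). It overlaps *Amz2* (mean 81.3 over the 7 libraries) and *Arsg* (8.46) on the chromosome, and because the strand used in counting is not given in the sources used here, reads of the overlapping part are uncertain. Both calls rested on several libraries. Without YFP+ replicate 1 the adjusted p was 0.201 for each gene. Leaving out YFP+ replicate 3 gave 0.0901 for *Tspan3* and 0.0845 for *Slc16a6*, leaving out Thy1hi replicate 1 gave 0.0878 and 0.123, and leaving out Thy1hi replicate 2 gave 0.0784 for each. The log2 fold changes stayed between 1.50 and 1.85 for *Tspan3* and between 1.52 and 1.84 for *Slc16a6* when any library was left out.

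**Figure D1:**
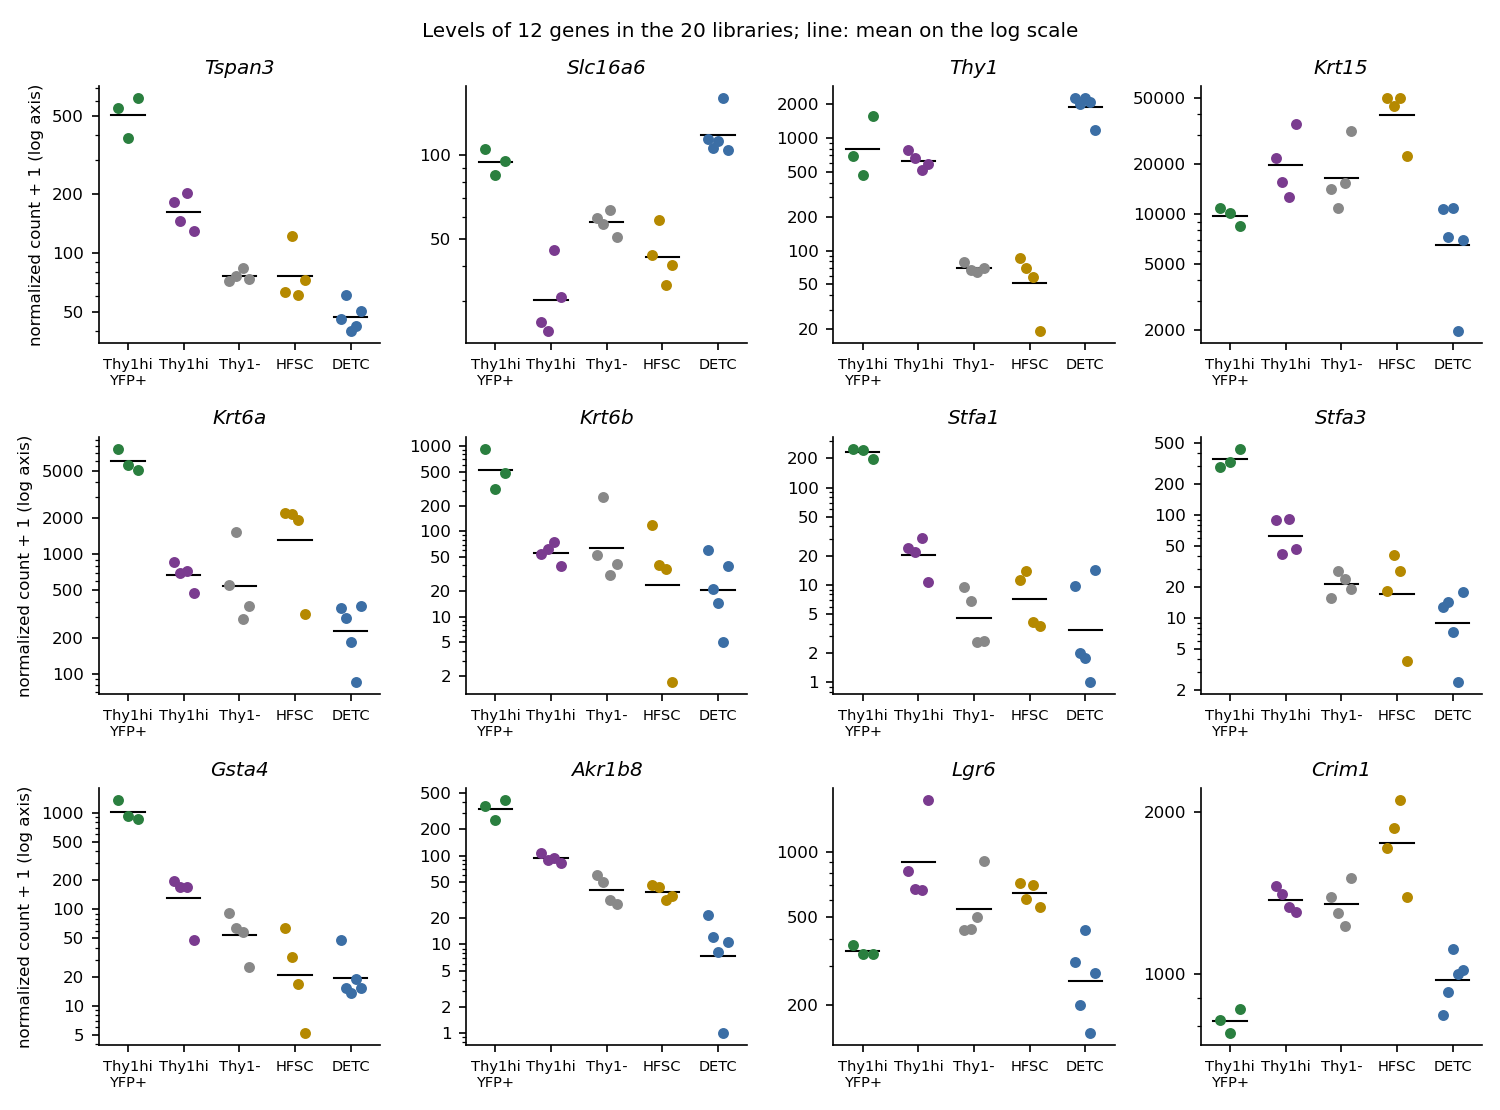
Normalized count + 1 on a log axis of 12 genes in the 20 libraries, 1 point per library and a line at the mean of each population on the log scale (Thy1hi YFP+ n = 3, Thy1hi n = 4, Thy1- n = 4, HFSC n = 4, DETC n = 5). The YFP+ points of *Tspan3*, *Krt6a*, *Krt6b*, *Stfa1*, *Stfa3*, *Gsta4* and *Akr1b8* lie above every other library, whereas those of *Thy1* overlap the Thy1hi points.

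Among 18 tetraspanin genes tested, only *Tspan3* passed the test, 12 had a positive and 6 a negative sign, and the median log2 fold change was 0.15 (0.03 to 0.19 when any library was left out). In 3 of the 18 (16.7%) all YFP+ libraries lay above all Thy1hi libraries, against 5.68% of all genes. *Tspan8* (65.8, 96.8 and 60.4 against 18.8 to 59.3) and *Tspan17* (15.9, 17.8 and 17.8 against 7.73 to 14.5) had YFP+ libraries above all Thy1hi libraries without passing it. *Cd53*, the tetraspanin of leukocytes, was 2.99, 12.4 and 3.96 against 15.5 to 27.7. Of 12 genes for monocarboxylate transporters and their chaperones, *Slc16a6* alone passed the test. *Slc16a1*, the lactate transporter MCT1, was 421, 420 and 489 against 154 to 340 (log2 fold change 0.83, limma adjusted p = 0.558). *Slc16a10*, an aromatic amino acid transporter, was 124, 152 and 118 against 158 to 267 (-0.70, limma adjusted p = 0.476).

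**Figure D2:**
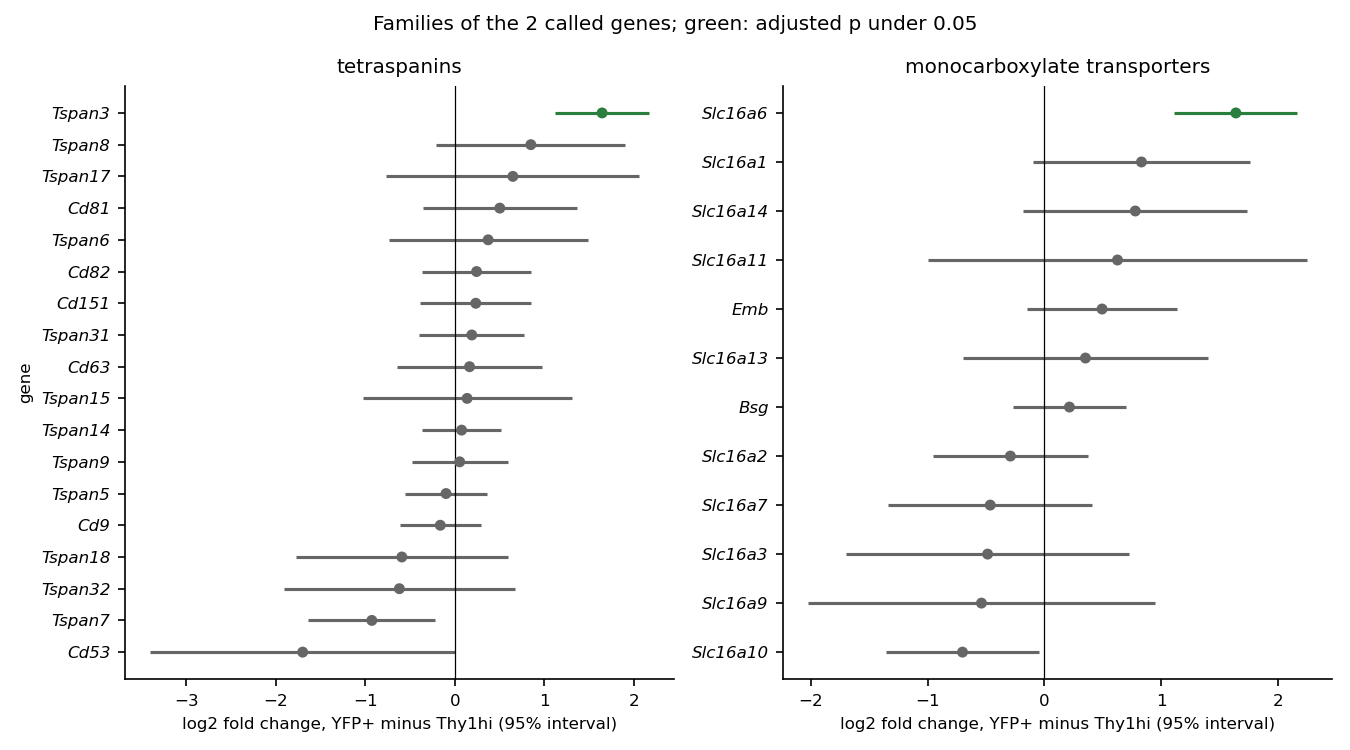
Log2 fold change of Thy1hi YFP+ over Thy1hi cells with its 95% interval from limma for 18 tetraspanin genes and 12 genes of monocarboxylate transporters and their chaperones. Only *Tspan3* and *Slc16a6*, in green, have an adjusted p under 0.05, and the intervals of most other members include 0.

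Promoter windows are shown for *Tspan3*, as a called gene, and for 1 member each of the groups of stress, NRF2 and sterol genes described below, chosen because its window holds a match. They come from RefSeq (GRCm38.p6) and run from 250 bases before to 50 bases after the annotated start, and 9832 of the gene names tested, *Slc16a6* not among them, had one. Each is written 5′ to 3′ on the strand of its gene. The RefSeq start of *Tspan3* lies inside the gene span given above, whose minus-strand start is at 56165477, so this window is not at that outer start. Capitals mark matches on either strand to TGANTCA (AP-1), TGACNNNGC (antioxidant response element) or TCACNCCAC (sterol regulatory element), and no match overlaps another in these windows.
Tspan3 (chr9:56161021-56161320, minus strand): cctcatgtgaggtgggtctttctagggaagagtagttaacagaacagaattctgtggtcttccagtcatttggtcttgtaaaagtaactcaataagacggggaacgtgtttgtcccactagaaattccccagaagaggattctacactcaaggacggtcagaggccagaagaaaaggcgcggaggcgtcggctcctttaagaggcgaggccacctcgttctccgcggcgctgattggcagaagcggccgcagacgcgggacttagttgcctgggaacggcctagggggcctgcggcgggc
Stfa3 (chr16:36455343-36455642, minus strand): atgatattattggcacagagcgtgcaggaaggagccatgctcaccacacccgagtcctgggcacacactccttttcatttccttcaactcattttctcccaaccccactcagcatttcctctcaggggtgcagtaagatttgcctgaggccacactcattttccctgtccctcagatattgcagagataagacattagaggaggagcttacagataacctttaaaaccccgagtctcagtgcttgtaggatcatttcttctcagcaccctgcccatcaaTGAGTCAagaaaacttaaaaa
Srxn1 (chr2:152105274-152105573, plus strand): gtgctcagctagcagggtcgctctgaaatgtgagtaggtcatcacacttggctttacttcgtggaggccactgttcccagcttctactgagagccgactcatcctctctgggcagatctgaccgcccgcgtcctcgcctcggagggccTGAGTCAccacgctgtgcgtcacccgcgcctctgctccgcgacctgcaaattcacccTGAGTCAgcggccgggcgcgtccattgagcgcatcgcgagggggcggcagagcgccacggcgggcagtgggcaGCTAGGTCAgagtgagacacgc
Hmgcs1 (chr13:119690101-119690400, plus strand): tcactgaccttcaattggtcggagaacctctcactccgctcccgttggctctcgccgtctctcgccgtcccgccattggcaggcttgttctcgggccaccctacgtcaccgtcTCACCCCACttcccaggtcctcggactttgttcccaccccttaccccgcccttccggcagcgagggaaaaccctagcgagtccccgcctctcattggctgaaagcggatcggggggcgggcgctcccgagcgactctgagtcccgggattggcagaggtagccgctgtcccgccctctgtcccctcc
The AP-1 letters were in 529 of the 9832 windows (5.38%), the antioxidant letters in 1431 (14.6%) and the sterol letters in 104 (1.06%). Among windows of the stress list the AP-1 letters were in 6 of 13, among those of the NRF2 list the antioxidant letters were in 2 of 13, and among those of the sterol list the sterol letters were in 1 of 16. A match describes these letters only.

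Ranked by size among genes with an unadjusted p under 0.05, groups without overlap and a mean of at least 50 in the higher group, the 10 largest positive differences were *Stfa1*, *BC100530*, *Krt6b*, *Krt6a*, *Prss12*, *Nppb*, *Gsta4*, *Mmp13*, *Gjb2* and *Gsdmc*. None passed the adjusted threshold in the 20-library limma fit, and for each all 3 YFP+ libraries exceeded all 17 other libraries of the series. Of all genes tested 211 (1.48%) did so, and 39 (0.274%) lay below all 17.

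The most abundant of these was a keratin of stressed epidermis. *Krt6a*, a keratin of the outer root sheath that injured interfollicular epidermis also makes, was 7616, 5537 and 5089 in YFP+ and 852, 701, 726 and 470 in Thy1hi libraries. The ratio of means was 8.85 and the log2 fold change 3.15 ± 0.62 (SE, limma adjusted p = 0.0907). With only the 7 libraries limma gave an adjusted p of 0.000230, and DESeq2 on all 20 libraries gave 7.58e-05. *Krt6b* was 934, 314 and 485 against 53.0, 61.9, 74.0 and 37.8 (log2 fold change 3.22, limma adjusted p = 0.285). Both are near-identical copies, so the division of reads between them is uncertain. The groups overlapped for their keratin partners, with *Krt16* at 9467, 9035 and 7623 against 6865 to 10914 and *Krt17* at 4218, 6859 and 3576 against 3431 to 5199. Hair follicle genes of the infundibulum, isthmus and outer root sheath, *Krt6a* and *Krt17* among them, summed to 17814 to 21622 against 8821 to 11510. Of their 13 members 9 had a positive sign, the median log2 fold change was 0.55, and *Krt6a* was the 1 above (7.69%). *Krt79*, a keratin of the infundibulum, was 2045, 3049 and 492 and overlapped 391 to 1815. Of 16 bulge genes 11 had a positive sign (median 0.25), with 0 above and 1 below. The part of follicle cells in the keratin difference was not tested.

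The stefins, cytoplasmic inhibitors of cysteine proteases in a cluster on chromosome 16, were similarly apart. *Stfa1* was 251, 245 and 198 in YFP+ cells and 23.2, 21.1, 29.3 and 9.70 in Thy1hi cells (log2 fold change 3.50 ± 0.79, limma adjusted p = 0.123, with 0.00387 in the 7 libraries alone). *BC100530*, a stefin of the same cluster, was 568, 499 and 680 against 92.7, 46.1, 82.9 and 33.0. *Stfa3* was 290, 326 and 438 against 87.2, 40.8, 89.4 and 45.6. No YFP+ library overlapped a Thy1hi library in any of the 3. Because these genes are near copies of each other, they are uncertain as single genes.

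Other genes in this ranking encode a gap junction protein, proteases and secreted peptides. *Gjb2* (connexin 26) was 1011, 639 and 535 against 61.1 to 139, and *Gsdmc*, a gasdermin, was 137, 85.9 and 217 against 9.70 to 52.0. The collagenase *Mmp13* was 78.8, 55.7 and 70.4 against 2.91 to 17.1, and the serine protease *Prss12* 69.8, 55.7 and 149 against 1.94 to 22.8. *Nppb*, the precursor of brain natriuretic peptide, was 104, 36.4 and 68.4 against 1.32 to 12.6. Their log2 fold changes ran from 2.56 for *Gsdmc* to 3.10 for *Prss12*, with limma adjusted p from 0.126 for *Gjb2* and *Prss12* to 0.345 for *Mmp13*. Chosen after their values were seen, *Fmnl2*, a formin, and *Fabp5*, the epidermal fatty acid binding protein, had the lowest p of the positive differences after the called genes. *Fmnl2* was 175, 115 and 145 against 29.8 to 50.1 (log2 fold change 1.88, limma adjusted p = 0.0602) and *Fabp5* 3532, 1700 and 1307 against 278 to 471 (2.54, 0.0781).

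**Figure D3:**
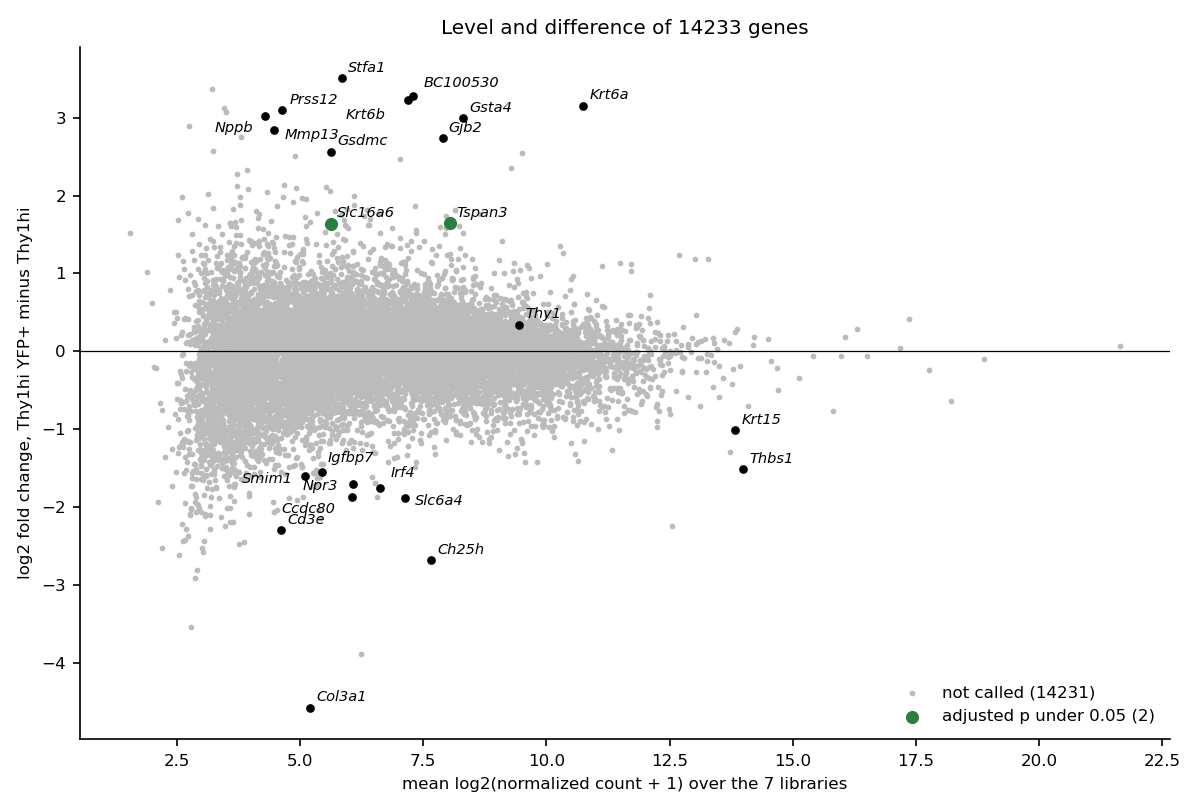
Log2 fold change of Thy1hi YFP+ over Thy1hi cells against the mean log2(normalized count + 1) of the 7 libraries for the 14233 genes tested. The 2 called genes are green, and the 4 markers of the comparison and the 10 largest positive and negative differences of the ranking are named. *Krt6a* combines a high level with a log2 fold change of 3.15, while *Col3a1* lies lowest at -4.57.

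Of 29 stress keratins and alarmins, 21 were tested. None passed the adjusted threshold, 17 had a positive sign and the median log2 fold change was 0.55. In 8 of them (38.1%) all YFP+ libraries lay above all Thy1hi libraries and in 0 below, where the background over all genes was 5.68% above (808 genes) and 6.07% below (864 genes). With columns rescaled to the same total, that background became 904 above and 585 below, and the list's count stayed at 8. Leaving out a library leaves fewer values to separate and raises the background too, to 988 to 1887 genes above and 1032 to 1685 below. The 8 were *Krt6a*, *Krt6b*, *Stfa1*, *Stfa3*, *Areg*, *Lcn2*, *Il24* and *Sprr2h*. *Il24* was 38.9, 20.1 and 49.5 against 4.85 to 18.8, so YFP+ replicate 2 barely cleared the Thy1hi range. *Areg*, an EGF receptor ligand, was 814, 388 and 323 against 141 to 182. *Lcn2*, which binds bacterial siderophores, was 16.9, 17.8 and 34.7 against 3.88 to 8.83. *Sprr2h*, a small proline-rich protein, was 72.8, 45.7 and 14.9 against 0 to 14.5, so YFP+ replicate 3 barely cleared the Thy1hi range. The alarmins *S100a8* and *S100a9* stayed at or under 12.0 in all 7 libraries. The median over the list lay between 0.39 and 1.07 when any library was left out.

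Genes of detoxification formed a further set. Of 17 tested targets of NRF2, the regulator of the oxidative stress response, and of the aryl hydrocarbon receptor, 0 were called, 12 had a positive sign, the median was 0.39 (0.19 to 0.48 when any library was left out), 4 lay wholly above the Thy1hi libraries (23.5%) and 1 below (5.88%). *Gsta4*, which conjugates glutathione to lipid peroxidation products, was 1368, 920 and 870 in YFP+ and 197, 170, 172 and 47.5 in Thy1hi libraries (log2 fold change 2.99, limma adjusted p = 0.121, DESeq2 adjusted p = 0.00152). *Akr1b8*, an aldo-keto reductase, was 360, 249 and 424 against 106, 88.2, 92.7 and 81.5 (1.86, limma adjusted p = 0.336, DESeq2 adjusted p = 7.58e-05). Both were separated by a wide gap. *Srxn1*, which repairs oxidised peroxiredoxins, was 96.7, 134 and 122 against 47.5 to 61.9, and *Ugt1a7c*, a glucuronosyltransferase, 23.9, 22.4 and 46.6 against 0 to 14.6. *Nqo1*, a classical NRF2 target, was 33.9, 23.2 and 85.2 and overlapped the Thy1hi libraries.

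The sterol pathway, which builds cholesterol from acetyl units, had many genes above. Of 23 genes tested 0 were called, 21 had a positive sign, the median log2 fold change was 0.62 (0.56 to 0.82 when any library was left out), and 11 lay above (47.8%). After rescaling to the same total 7 lay above, and without YFP+ replicate 3 17 did (1507 of all genes). Among early enzymes, *Hmgcs1*, which makes HMG-CoA, was 2890, 2730 and 2812 against 1527 to 2347. *Idi1*, an isomerase of isoprenoid units, was 984, 1043 and 869 against 363 to 598, and *Mvd*, which makes isopentenyl diphosphate, 105, 94.4 and 53.5 against 23.3 to 49.6. *Fdps*, the farnesyl diphosphate synthase, was 107, 102 and 65.4 against 31.6 to 57.7.

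Of the later steps, *Sqle*, the squalene epoxidase, was 894, 918 and 721 against 319 to 490 (log2 fold change 1.18, limma adjusted p = 0.247, with 0.0295 in the 7 libraries alone). *Nsdhl*, a sterol dehydrogenase, was 121, 79.0 and 95.1 against 40.6 to 57.4. *Msmo1* was 1263, 1102 and 749.03 against 549 to 748.66, so YFP+ replicate 3 barely cleared the Thy1hi range. *Hsd17b7*, *Sc5d* and *Ebp*, which like *Msmo1* are enzymes that convert lanosterol towards cholesterol, and *Stard4*, a sterol carrier, were also above in every YFP+ library, with log2 fold changes of 0.62 for *Ebp* to 1.05 for *Hsd17b7*.

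**Figure D4:**
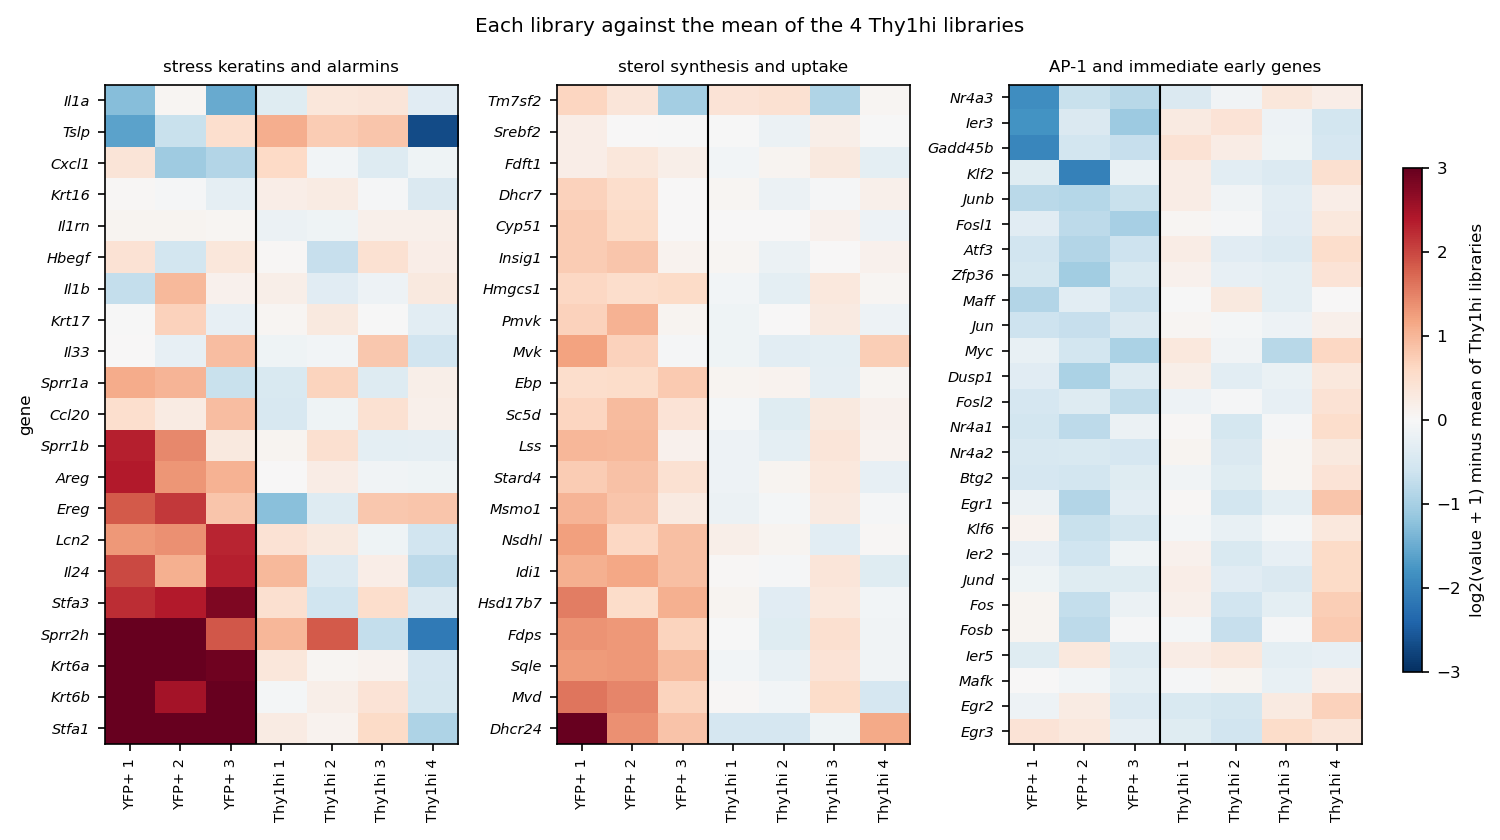
Log2(value + 1) of each library minus the mean of the 4 Thy1hi libraries for tested members of 3 lists, with genes ordered by log2 fold change, the YFP+ libraries to the left of the line and colours limited to -3 and 3. Lower rows of the stress and sterol panels are red in all 3 YFP+ libraries, and most rows of the AP-1 panel are blue in them.

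Differentiation genes mostly had positive signs, unevenly between libraries. Of 35 spinous and granular genes tested 0 were called, 29 had a positive sign and the median log2 fold change was 0.85, yet just 1 lay above all Thy1hi libraries (2.86%) and 1 below. The count above rested on single libraries, with 20 of 35 without YFP+ replicate 3 (1507 of all genes), 5 without Thy1hi replicate 4 (1508), 2 without YFP+ replicate 2 (1887) or Thy1hi replicate 2 (988), and 3 after rescaling (904). *Krt10* was 31643, 19651 and 6538 in YFP+ and 3777, 6247, 6677 and 15383 in Thy1hi libraries. *Krt1* was 19799, 8651 and 7503 against 3878, 3282, 4291 and 8169. For both, YFP+ replicate 1 was highest and Thy1hi replicate 4 lay within the YFP+ range. *Tgm1*, the transglutaminase that cross-links the cornified envelope, was the gene above (300, 334 and 160 against 56.3 to 155), and *Ovol1*, a repressor that accompanies exit from the cell cycle, the gene below (546, 783 and 687 against 834 to 1765). With single libraries left out, the list's median ranged from 0.34 to 1.41. Of 11 sebaceous gland genes tested 11 had a positive sign (median 0.85, or 0.30 to 1.48 when any library was left out), with 1, *Mgst1*, above all Thy1hi libraries, or 5 without Thy1hi replicate 4 (1508 of all genes), 4 without YFP+ replicate 3 (1507) and 3 without YFP+ replicate 2 (1887).

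Basal genes other than the main keratins leaned lower. Of 18 basal keratin and transcription genes 0 were called, 14 had a negative sign, the median was -0.35 and 6 lay below all Thy1hi libraries (33.3%). *Krt15*, a keratin of basal and bulge cells, was 10936, 10164 and 8496 in YFP+ and 21801, 15651, 12668 and 35169 in Thy1hi cells. Its log2 fold change of -1.01 (95% interval -2.06 to 0.04, limma adjusted p = 0.526) came with groups that did not overlap, and Thy1hi replicate 4 was highest. *Lgr6*, a receptor for R-spondins found on epidermal stem cells, was 374, 341 and 340 against 815, 672, 670 and 1725 (-1.34, limma adjusted p = 0.180, DESeq2 adjusted p = 0.0171). *Id3*, a helix-loop-helix inhibitor, was 229, 258 and 188 against 371 to 669, and *Egfr* 1273, 1366 and 1380 against 1589 to 2612. Of 23 hemidesmosome, integrin and basement membrane genes 5 were below (21.7%) and 1 above. After rescaling 3 were below and 0 above, and without YFP+ replicate 3 11 were below (1584 of all genes). The list had a median of -0.31 that came to -0.06 at its nearest to 0 when single libraries were left out. *Itgb6* was 131, 183 and 163 against 301 to 423, and the basement membrane chains *Col4a1* (66.8, 119 and 41.6 against 128 to 227) and *Col4a2* (81.7, 124 and 69.3 against 165 to 341) were below as well. The hemidesmosome gene *Itgb4* (6726, 4162 and 6840 against 5234 to 6608) and *Col17a1* (31899, 23589 and 41442 against 33722 to 45437) overlapped.

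AP-1 factors and other immediate early genes, whose transcripts climb within minutes of handling or injury, mostly had negative signs. Of 26 genes 0 were called and 25 had a negative sign, with a median log2 fold change of -0.52, and 12 lay below all Thy1hi libraries (46.2%), or 8 after rescaling to the same total. *Junb* was 2590, 2489 and 2839 against 3596 to 5252, *Jun* 8990, 8499 and 10207 against 12418 to 15192, and *Atf3* 7325, 5956 and 7142 against 8251 to 15742. *Nr4a3*, an orphan nuclear receptor, was 272, 632 and 557 against 743 to 1262. *Fos* was 11138, 6450 and 9263 and overlapped 7022 to 17509. Others of the 12 barely cleared the Thy1hi range. The highest YFP+ and lowest Thy1hi library were 2161 and 2166 for *Fosl1*, 2473 and 2475 for *Btg2*, 334 and 336 for *Maff*, 225 and 228 for *Nr4a2* and 4817 and 4901 for *Dusp1*. No member passed the adjusted threshold in DESeq2 on 20 libraries or in limma on 7 either, while DESeq2 on 7 libraries gave an adjusted p of 0.00245 for *Junb*, 0.0107 for *Jun* and 0.0169 for *Nr4a3*. In the 20-library limma fit the *Junb* difference of -0.77 had an adjusted p of 0.777.

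**Figure D5:**
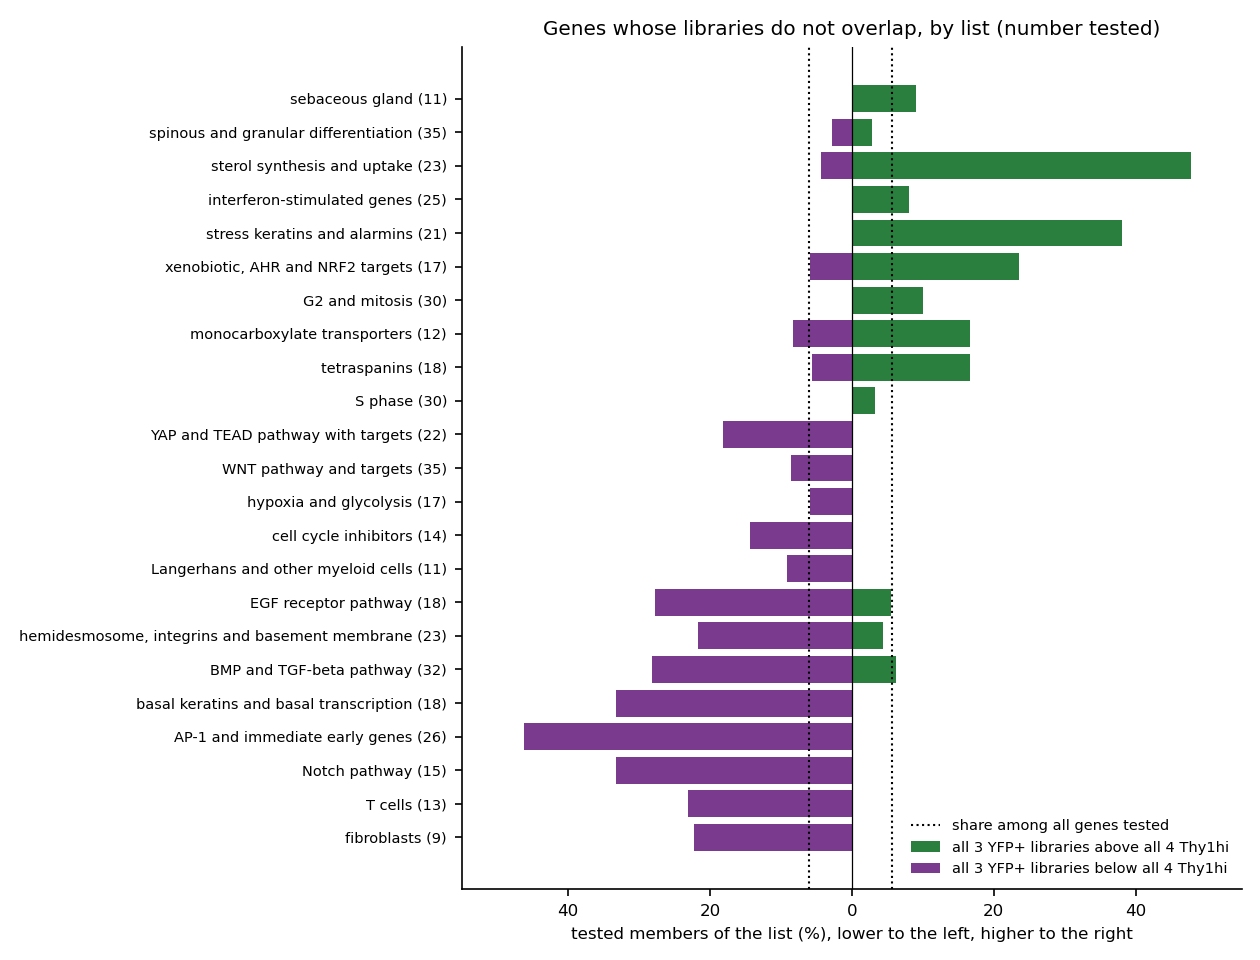
Share of the tested members of each list for which all 3 YFP+ libraries lie above (green, right) or below (purple, left) all 4 Thy1hi libraries, with lists ordered by median log2 fold change and the number tested in parentheses. The dotted lines give the same shares over all 14233 genes, 5.68% above and 6.07% below. On the deposited scale sterol (47.8%) and stress (38.1%) genes extend farthest to the right and AP-1 genes (46.2%) farthest to the left, while after rescaling 7 sterol and 8 stress genes lay above.

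Interferon-stimulated genes had 23 positive signs of 25 and a median of 0.56 (0.25 to 0.89 when any library was left out) with 0 called and 2 apart (8.00%), *Rsad2* (41.9, 16.3 and 31.7 against 3.88 to 13.0) and *Gbp3* (58.8, 33.3 and 45.6 against 11.6 to 29.0). That share is near the background, and 9 lay above without YFP+ replicate 2 (1887 of all genes) and 7 without Thy1hi replicate 3 (1141 of all genes). Of 30 genes of G2 and mitosis 0 were called, 27 had a positive sign, the median was 0.36 (0.16 to 0.57 when any library was left out) and 3 lay above (10.0%). That count was 1 after rescaling to the same total, 5 without Thy1hi replicate 3 (1141 of all genes) and 16 without YFP+ replicate 1 (1106 of all genes). *Plk1*, a mitotic kinase, was 128, 132 and 133 against 40.8 to 86.3, *Cdk1* 199, 226 and 278 against 136 to 183, and *Birc5*, or survivin, 137, 187 and 150 against 83.0 to 135. The proliferation marker *Mki67* was 3977, 4646 and 7526 and overlapped 3117 to 5680. S phase genes had 16 positive and 14 negative signs of 30, 0 called, a median of 0.02 and 1 above, or 3 after rescaling (904 of all genes), 6 without YFP+ replicate 2 (1887) and 2 without Thy1hi replicate 1 (1077). None lay below, or 4 without Thy1hi replicate 3 (1206 of all genes), 2 without YFP+ replicate 1 (1190) and 1 without Thy1hi replicate 4 (1685). Among 14 inhibitors of the cell cycle 0 were called and 2 lay below (14.3%), or 1 after rescaling and 4 without Thy1hi replicate 3 (1206 of all genes). The count above was 0, or 1 after rescaling (904 of all genes) and 2 without YFP+ replicate 3 or Thy1hi replicate 4 (1507 and 1508). The antiproliferative factor *Btg1* lay below, with 2065, 2607 and 2101 against 3014 to 4751.

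Signalling pathways of the basal layer had mostly negative signs, with 0 genes called in each by limma over 20 libraries. In the Notch pathway, which drives the exit from the basal layer, 12 of 15 genes had a negative sign (median -0.56) and 5 lay below (33.3%). The receptor *Notch1* was 2780, 4415 and 4111 against 5490 to 6789 and the coactivator *Maml1* 188, 245 and 204 against 279 to 375, whereas the receptor *Notch3* was 870, 608 and 364 against 188 to 371. In the BMP and TGF-beta pathway 24 of 32 had a negative sign (median -0.33), 9 lay below (28.1%), or 16 without YFP+ replicate 3 (1584 of all genes), and 2 above (6.25%). The ligands *Tgfb2* (35.9, 37.2 and 27.7 against 54.5 to 88.3), *Tgfb3* (12.0, 31.7 and 24.8 against 42.7 to 73.8) and *Bmp4* (147, 72.8 and 122 against 221 to 276) were all below. So were the coreceptor *Tgfbr3* (406, 387 and 571 against 656 to 931) and the transducer *Smad3* (425, 258 and 339 against 530 to 701).

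Of 18 EGF receptor pathway genes 5 lay below (27.8%), or 1 after rescaling to the same total, and 1, *Areg*, above. The count above was 3 without Thy1hi replicate 4 (1508 of all genes) and 2 without YFP+ replicate 2 or 3 (1887 and 1507). *Spred2*, an inhibitor of the RAS to ERK cascade, was 271, 209 and 218 against 354 to 559. WNT genes had 3 of 35 below (8.57%), near the background, or 6 without YFP+ replicate 2 or 3 (1600 and 1584 of all genes) and 5 without Thy1hi replicate 4 (1685). None lay above, or 3 without YFP+ replicate 3 (1507 of all genes) and 1 without YFP+ replicate 1 (1106) or Thy1hi replicate 4 (1508). Among those below was the ubiquitin ligase *Znrf3* at 247, 235 and 240 against 331 to 490 (log2 fold change -0.74, limma adjusted p = 0.126, DESeq2 adjusted p = 0.0101). YAP and TEAD genes had 4 of 22 below (18.2%), or 2 below and 1 above after rescaling and 7 below without YFP+ replicate 3 (1584 of all genes). *Crim1*, a transmembrane regulator of BMP signalling, was the closest to the limma threshold among them. It was 819, 773 and 857 against 1453, 1403, 1328 and 1302, a tight separation (-0.75 ± 0.15, limma adjusted p = 0.0959, DESeq2 adjusted p = 0.000668). In 17 hypoxia and glycolysis genes 1 lay below (5.88%), *Pfkfb3*, a regulator of glycolysis, with 456, 562 and 320 against 670 to 2188. Without Thy1hi replicate 4 7 of these genes lay below (1685 of all genes), and without YFP+ replicate 1 or 2 2 did (1190 and 1600).

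The 10 largest negative differences by the same ranking were *Col3a1*, *Ch25h*, *Cd3e*, *Slc6a4*, *Ccdc80*, *Irf4*, *Npr3*, *Smim1*, *Igfbp7* and *Thbs1*, none of which passed the limma threshold. *Slc6a4*, the serotonin transporter, was 48.8, 58.8 and 97.1 against 219 to 295 (log2 fold change -1.88, limma adjusted p = 0.0699, DESeq2 adjusted p = 8.57e-05). *Thbs1*, the matricellular thrombospondin 1, was by far the most abundant of them, with 10250, 5853 and 12230 against 24099 to 28818. *Ch25h*, the cholesterol 25-hydroxylase, was 17.9, 115 and 155 against 191 to 680. *Irf4*, a transcription factor, was 22.9, 36.4 and 133 against 144 to 182. All 3 YFP+ libraries lay below the lowest Thy1hi library in each.

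*Col3a1* and *Cd3e* belong to other cell types, fibroblasts and T cells. *Col3a1* was 1.99, 36.4 and 0.99 in YFP+ and 459, 227, 36.6 and 108 in Thy1hi libraries, so YFP+ replicate 2 lay just below the lowest Thy1hi library. The summed level of the fibroblast list was 246 to 639 in YFP+ and 474 to 2439 in Thy1hi libraries, and 8 of its 9 tested genes had a negative sign (median -1.82), with 2 below, or 6 without YFP+ replicate 2 (1600 of all genes) and 5 without Thy1hi replicate 3 (1206). *Col1a1*, its leading collagen, was 12.0, 65.0 and 3.96 against 50.4 to 909. *Cd3e*, a chain of the T cell receptor complex, was 12.0, 13.9 and 3.96 against 32.0 to 83.4, and *Trdc* 11.0, 19.4 and 2.97 against 26.0 to 62.1. The 13 tested T cell genes had 11 negative signs (median -0.72) and 3 below (23.1%), or 7 without Thy1hi replicate 3 (1206 of all genes). All 20 T cell genes of the list with values, tested or not, summed to 248 to 383 against 349 to 736. Langerhans and other myeloid genes summed to 1591 to 2400 against 1694 to 2555. The 7 Merkel cell genes, of which 1 passed the filter, summed to 10.9 to 27.1 against 13.0 to 86.9. Their defining factor *Atoh1* was at 0 in the YFP+ libraries and at 0, 7.90, 2.44 and 0 in the Thy1hi libraries. Genes of Schwann cells and neurons summed to 595 to 737 against 942 to 1144, without overlap. Of their 4 tested genes 4 had a negative sign, with 1 below (25%). Endothelial and mural genes summed to 190 to 265 against 285 to 433, also without overlap. Of their 5 tested genes 4 had a negative and 1 a positive sign, with 0 below. Melanocyte genes overlapped, with sums of 132 to 194 against 132 to 232. The part of these other cells in the negative differences was not tested.

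Most differences were bounded only loosely. The 95% interval of the log2 fold change lay between -1 and 1 for 6748 of the 14233 genes (47.4%) and between -2 and 2 for 12266 (86.2%). The median distance from the estimate to either end of its interval was 0.709. For the remaining genes a change beyond -1 or 1 was not excluded. The called pair was among them, with intervals wholly above 1 (1.13 to 2.17 for *Tspan3*, 1.11 to 2.17 for *Slc16a6*). The absence of a call does not show that both groups had the same level.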

How the data were processed

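Bulk RNA-seq of FACS-sorted mouse epidermal cells was analysed from 1 table of 53380 genes and 20 libraries. The deposited values (a signal per gene, normalized counts) come from the authors' alignment with STAR (genome mm10), featureCounts totals per Ensembl gene and division by 1 DESeq2 size factor per library. Versions of STAR and featureCounts are not given in the sources used here. Whole reads were recovered for 100% of values under 1000 reads (tolerance 0.1 reads). The values of 1 column, Thy1- replicate 4, stood in another gene order for 3212 genes, as if names had been sorted without hyphens, and were put back (correlation to the 3 remaining Thy1- columns averaged, 0.0367 before and 0.936 after). In the comparison it enters only the shared spread, and it also enters the Thy1- means and the 17 other libraries.

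Genes with at least 10 in 3 of the 7 columns were tested with limma (lmFit, eBayes with trend, two-sided) on log2(value + 1), 20 libraries in 1 fit with 1 mean per population, Benjamini-Hochberg over 14233 genes, threshold 0.05. Exact permutation tests used 35 splits. Alternatives were pseudocounts of 0.1 and 10, other filters, rescaling, quantile normalization, fewer libraries, edgeR, DESeq2 and a replicate block. edgeR and DESeq2 were run on recovered reads, and an adjusted p named DESeq2 is from all 20 libraries. Members and gene lists were chosen with earlier results of these data known. Named genes were the 4 markers, called genes, the 10 largest differences each way with unadjusted p under 0.05, no overlap and a mean of at least 50, and list members. A few list members are counted but not reported here by name. Depth limits low genes, and without molecular identifiers it covers counting error only. Tools were R 4.3.3, limma 3.58.1, edgeR 4.0.16, DESeq2 1.42.0, Python 3.11.15, numpy 2.4.6, pandas 2.3.3 and matplotlib 3.10.9.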

Additional observations from a re-analysis of the deposited data

Results flagged for a closer look

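Among the 4 Thy1hi libraries, 1 lay far from the other 3 in 6 of 93 genes named, by the size of its gap against the whole range. Chance gives this in about 1 of 20 groups. In Thy1hi replicate 4, *Lgr6* was 1725 (670 to 815 in the others), *Col4a2* 341 (165 to 185) and *Ugt1a7c* 0 (13.2 to 14.6). In Thy1hi replicate 3, *Sqle* was 490 (319 to 348) and *Ebp* 79.7 (101 to 104). In Thy1hi replicate 2, *Cdk1* was 136 (176 to 183). For each of these genes the groups are apart with that library included.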

How the results depend on the processing

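The number of genes called was 2 with all settings as described, and also with pseudocount 0.1, edgeR on 20 libraries and the deposited row order, and 3 without a filter on low values. It was 27 with pseudocount 10, 5 with a mean of at least 50, 0 after rescaling to the same total (1095 at an unadjusted p under 0.05), 0 when rescaled without *Rn45s* and mitochondrial genes (1330), 22 after quantile normalization, 12 without the DETC libraries, 37 with only the 7 libraries, 33 with edgeR and no filter, 45 with edgeR on 7 libraries, 108 with DESeq2 on 20 and 426 on 7. The cause was not tested. Leaving out 1 library gave 0 to 5 calls, with 0 and 853 at an unadjusted p under 0.05 without YFP+ replicate 1. In the 7-library limma fit it gave 6, 32 and 61 without YFP+ replicates 1, 2 and 3, and 16, 21, 15 and 62 without Thy1hi replicates 1 to 4. With a replicate block, 335 genes were called over 7 libraries and 202 over 20. Same-numbered libraries had correlations of deviations of -0.05, 0.353 and 0.103, and differently numbered libraries -0.248 to 0.223. These values do not settle whether the numbers pair the samples. Chosen after seeing the data were the 7-library edgeR and DESeq2 fits, the rescaling without *Rn45s* and the 7-library fits with a library left out.

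After both rescalings *Tspan3* had limma adjusted p of 0.0906 and 0.0761 and *Slc16a6* 0.0906 and 0.0754. Their log2 fold changes were then 1.69 and 1.71 for *Tspan3* and 1.68 and 1.70 for *Slc16a6*, against 1.65 and 1.64 in the main fit. On 7 libraries *Slc16a6* had an adjusted p of 0.0599 with limma and 0.0644 with edgeR, with log2 fold changes of 1.64 and 1.60. The *Thy1* log2 fold change ran from -0.14 (without YFP+ replicate 3) to 0.73 when single libraries were left out. The S phase median ran from -0.092 to 0.16 when single libraries were left out. No other named gene changed sign under the alternatives, and none of the other 22 list medians did. The medians of the hair follicle lists were not run under them. The share of intervals between -1 and 1 ran from 37.0% (without YFP+ replicate 2) to 52.0% (only the 7 libraries). The 3 and 4 libraries per group limit the precision.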
